A study of Homo sapiens with 8 samples.

Results

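The cells described here are single untreated cells of the human triple-negative breast cancer line MDA-MB-231, taken from the 2 ends of a mitotic index. The index of a cell was the summed CPM (a gene's counts scaled to the same total in every cell) of 10 genes of G2 and mitosis, TOP2A, MKI67, CCNB1, CDC20, PLK1, AURKA, CENPF, UBE2C, BIRC5 and TPX2. Cells with at least 1000 genes and 5000 counts were ranked over the 8 libraries of the study and cut into tertiles, called mitotic-high, intermediate and mitotic-low here. Of the 363 cells kept, 181 were untreated; 68 of these were mitotic-high, 49 intermediate and 64 mitotic-low, so that 132 cells are compared. The study holds 378 cells in 8 libraries of picked single cells: 2 of WT cells and 2 labelled ATM knockdown, untreated, and 2 of each collected 4 h after 5 Gy of ionising radiation. ATM is the kinase that signals DNA double-strand breaks, and the untreated cells of either genotype received no radiation. The labels give neither the means of the knockdown nor the culture that each library was picked from. The p-values of genes here rest on how a difference within libraries varies from library to library. That variation may be no more than technical.

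The targeted gene did not separate the untreated libraries by label. ATM stood at 57.9 and 31.1 CPM in WT libraries 1 and 2, and at 13.8 and 33.0 CPM in libraries 1 and 2 labelled knockdown, over all kept cells. The second library labelled knockdown thus lay within the WT range. Genotype is therefore given below as a label only. The 2 genotypes also carry different title suffixes, and what the suffixes stand for is not given in the labels. Genotype cannot be told apart from any other difference that goes with the suffix. No cell name was shared between libraries.

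A cell that is going to divide copies its DNA in S phase and then, in G2, fills up with the transcripts of the mitotic machinery. Cyclin B with CDK1 drives entry into mitosis, the Aurora and Polo kinases build the spindle, the checkpoint holds the chromosomes until kinetochores are attached, and the anaphase-promoting complex with CDC20 then has cyclin B and securin destroyed. Many of these genes are repressed in G1 by the DREAM complex and activated in G2 by B-MYB and FOXM1 through the same promoter elements, and their transcripts fall again after division. TOP2A untangles sister DNA, MKI67 coats mitotic chromosomes, CENPF and TPX2 belong to the kinetochore and the spindle, BIRC5 (survivin) is a subunit of the Aurora B complex and UBE2C is a ubiquitin-conjugating enzyme of the anaphase-promoting complex.

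The index chose the cells, so its own genes are given as a description without a test. The index ranged from 30.5 to 14842 CPM. Its median was 255 CPM in mitotic-low cells, 886 CPM in intermediate cells and 5338 CPM in mitotic-high cells. The cuts fell at 553 and 2545 CPM, and they did not fall into a gap at the lower end: the nearest untreated cells stood at 552 and 553 CPM there, and at 2405 and 2603 CPM at the upper cut. Within 1.25-fold of the lower cut lay 20 untreated cells, and within 1.25-fold of the upper cut 10. WT library 1 gave 19 mitotic-high and 12 mitotic-low cells and WT library 2 gave 14 and 16. Labelled-knockdown library 1 gave 12 mitotic-high and 21 mitotic-low cells and labelled-knockdown library 2 gave 23 and 15.

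**Figure D1:**
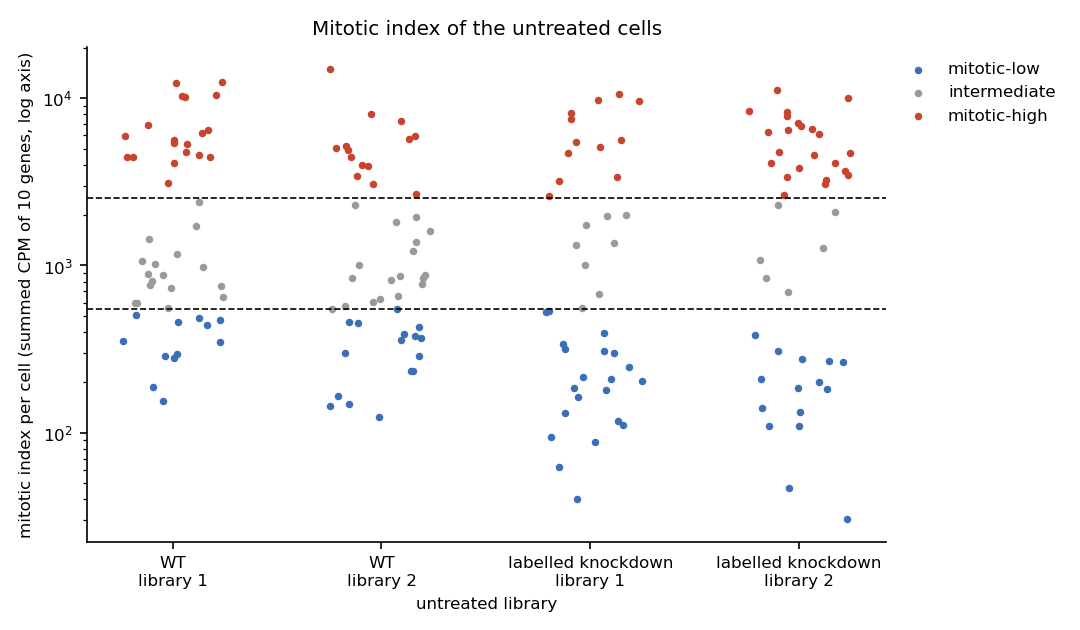
Mitotic index of each of the 181 untreated cells (vertical axis, summed CPM of the 10 genes, logarithmic), by library (horizontal axis); points are cells, coloured by tertile, and dashed lines are the cuts at 553 and 2545 CPM. Each of the 4 libraries holds cells of all 3 tertiles.

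Among the index genes, values below are the CPM of the summed cells of a tertile, in the order WT library 1, WT library 2, labelled-knockdown library 1 and labelled-knockdown library 2; the same order holds wherever 4 values are given. TOP2A stood at 55.0, 77.2, 14.1 and 12.1 CPM in mitotic-low cells and at 1473, 1042, 1262 and 789.5 CPM in mitotic-high cells. CCNB1 stood at 28.2, 36.0, 36.9 and 60.2 CPM and at 620.5, 711, 704 and 752 CPM. PLK1, which had fewer counts than these, stood at 3.25, 0.924, 6.08 and 1.42 CPM in mitotic-low cells and 235, 147, 224 and 174 CPM in mitotic-high cells. The index genes were not all present in each mitotic-high cell. All 68 mitotic-high cells had counts of TOP2A, MKI67, CCNB1, CDC20, CENPF and UBE2C, while 8 had none of PLK1, 3 none of BIRC5, 2 none of AURKA and 1 none of TPX2. The quartiles of the mitotic-high cells were 606 and 1541 CPM for TOP2A and 38.0 and 271 CPM for PLK1. TOP2A made up a median of 18.5% of the index of a mitotic-high cell, CENPF 15.4% and PLK1 2.80%. The 10 genes were all found in 58 of the 68 mitotic-high cells, 21 of the 49 intermediate cells and 11 of the 64 mitotic-low cells.

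The index was also split, and the genes of each part were described in cells cut on the other part. The sums of the first 5 and of the last 5 index genes had a Pearson correlation of 0.829 on the log2 scale over the 181 untreated cells; both sums come from the same cells and share their depth. When cells were cut into tertiles on TOP2A, MKI67, CCNB1, CDC20 and PLK1 alone, 123 of the 132 cells kept their tertile and 0 changed ends. The cells of this cut were thus nearly those that the left-out genes had helped to choose. The genes left out were all higher in mitotic-high cells. AURKA ranged from 11.2 to 42.1 CPM in the 4 mitotic-low sums and from 351 to 618 CPM in the mitotic-high sums. Its log2 difference was 4.27. CENPF rose from 22.4 to 64.5 CPM up to 629 to 1057 CPM, by 4.62 on the log2 scale. The reverse split was made on AURKA, CENPF, UBE2C, BIRC5 and TPX2. There PLK1 ranged from 0.928 to 6.96 CPM in mitotic-low and from 144 to 235 CPM in mitotic-high sums, a difference of 6.14. In each of these comparisons the 2 ends did not overlap. Under the reverse split 122 of the 132 cells kept their tertile. As both cuts chose nearly the cells of the whole index, these differences were close to fixed in advance and are a description only.

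Depth per cell was compared between the 2 ends, which can set how many genes are seen. Median counts per cell were 431366 ± 217493 in mitotic-high cells and 329649 ± 160409 in mitotic-low cells (SD, n = 4 libraries; higher in mitotic-high cells in 2 of 4 libraries; exact two-sided sign-flip permutation test, p = 0.75). The libraries differed in this: in WT library 1 the median was 728822 counts in mitotic-high and 165054 in mitotic-low cells. Cells with over 2 times the median count of their library numbered 10, 1, 4 and 6 among the mitotic-high and 0, 1, 4 and 1 among the mitotic-low cells of the 4 libraries; these are called the most deeply counted cells below. With each cell thinned to 50000 counts, which left out 13 untreated cells, the median number of genes was 5114 ± 330 in mitotic-high and 4750 ± 413 in mitotic-low cells (SD, n = 4; exact permutation p = 0.375). The mitochondrial share of counts was 9.96 ± 1.57% in mitotic-high and 12.3 ± 1.49% in mitotic-low cells, lower in mitotic-high cells in 4 of 4 libraries (SD, n = 4; exact permutation p = 0.125, the smallest p that 4 libraries can give). At the thinned depth 119 of 122 cells kept their tertile.

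Counts of the cells of a tertile were summed within each library, and mitotic-high cells were compared with mitotic-low cells with the library as a block (edgeR's quasi-likelihood test, Benjamini-Hochberg adjusted over all genes tested; a gene is called at an adjusted p below 0.05). Of 10432 genes tested outside the index, 317 were higher in mitotic-high cells, which is 3.04% of those tested, and 141 were lower, which is 1.35%. All 317 higher genes and 138 of the 141 lower genes moved the same way in each of the 4 libraries. The calls rest on these same 4 differences, so this agreement is not separate evidence. The median log2 difference over all genes was 0.01. The p-values set the difference within libraries against its variation from library to library. They do not allow for the cells having been ranked on mitotic transcripts of the same libraries. Without labelled-knockdown library 1 the calls dropped from 458 to 291, the lowest number when a library was left out. The lower calls moved more than the higher ones: there were 65 without labelled-knockdown library 1 and 77 without WT library 1, against 226 and 247 higher calls. Without the most deeply counted cells there were 230 higher and 69 lower calls.

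Most kinases and cyclins that start mitosis were higher in mitotic-high cells. Of 18 tested members outside the index, 14 rose and 0 fell, with a median log2 difference of 3.92. CDK1 (ENSG00000170312.15, chromosome 10, 60778331 to 60794852, GENCODE 29 on GRCh38), the catalytic partner of cyclin B, stood at 25.7, 22.2, 11.7 and 27.5 CPM in mitotic-low cells and at 497, 508, 705 and 349 CPM in mitotic-high cells. The 4 mitotic-high values all lay above the 4 mitotic-low values, a log2 difference of 4.51 (SE 0.33, adjusted p = 1.74e-06). CCNA2, the cyclin of S phase and G2, rose from 19.2, 7.13, 17.3 and 7.29 CPM to 274, 138, 277 and 210.3 CPM, by 4.16 (SE 0.29, adjusted p = 6.68e-07). CCNB2, a second B-type cyclin, rose by 4.28 (SE 0.40, adjusted p = 9.64e-06). CKS2, a small subunit that docks on CDK1, was the most detected of these genes in mitotic-low cells, at 269.8, 118, 72.3 and 78.7 CPM, and stood at 1257, 860.1, 665 and 629 CPM in mitotic-high cells, a difference of 2.75 (SE 0.19, adjusted p = 6.50e-07). AURKB, the kinase that corrects faulty attachments, and CDCA8 (borealin), which anchors it at centromeres, differed by 5.02 (SE 0.54, adjusted p = 4.08e-05) and 5.32 (SE 0.38, adjusted p = 8.30e-07). The members that were not called were INCENP, WEE1, CDC25A and CDC25B. WEE1, which holds CDK1 inactive, and CDC25A and CDC25B, which activate it, thus did not pass the test, although all 18 members had higher values in mitotic-high cells.

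At the kinetochore, the protein platform by which a chromosome holds the spindle, 25 of 27 tested genes rose, with a median of 3.63; SPC25 and DSN1 did not pass. NDC80, a rod that grips microtubule ends, stood at 5.42, 4.49, 2.41 and 1.07 CPM in mitotic-low and 151, 126, 283 and 191 CPM in mitotic-high cells. No mitotic-low value reached 6 CPM and no mitotic-high value was below 125 CPM, a log2 difference of 5.82 (SE 0.49, adjusted p = 3.98e-06). Its partner NUF2 rose by 4.81 (SE 0.35, adjusted p = 8.83e-07). MAD2L1, the checkpoint protein that inhibits CDC20, rose evenly across libraries, from 14.8, 18.5, 29.5 and 21.5 CPM to 257, 275, 219 and 245 CPM, by 3.52 (SE 0.27, adjusted p = 1.73e-06). The checkpoint kinases TTK and BUB1 rose by 5.30 (SE 0.54, adjusted p = 2.57e-05) and 3.63 (SE 0.36, adjusted p = 2.06e-05), and SGO2, which guards centromeric cohesion, by 3.83 (SE 0.26, adjusted p = 6.68e-07). CENPE, a kinetochore motor, rose by 4.57 (SE 0.39, adjusted p = 1.47e-05). CENPA, the histone variant that marks centromeres, rose by 3.05 (SE 0.56, adjusted p = 0.00475), and its chaperone HJURP by 5.15 (SE 0.49, adjusted p = 1.18e-05). The call of CENPA was lost without the most deeply counted cells (adjusted p = 0.16).

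Motors and spindle proteins were likewise higher. Of the 13 mitotic kinesins tested, 10 rose, and KIF15, KIF22 and KIF2A did not pass. KIF20A, needed for the last cut between daughter cells, stood at 1.81, 2.24, 0.886 and 24.9 CPM in mitotic-low and 125, 161, 146 and 160.4 CPM in mitotic-high cells; labelled-knockdown library 2 was the high one among the mitotic-low sums. Its log2 difference was 5.38 (SE 0.73, adjusted p = 0.00135). KIF2C, which shortens microtubules at centromeres, rose from 11.9, 7.39, 18.0 and 4.798 CPM to 255, 193, 391 and 213 CPM, by 4.67 (SE 0.28, adjusted p = 1.93e-07). KIF4A, a chromosome motor, KIF11, which pushes spindle poles apart, KIF14 and KIF20B rose by 5.38 (SE 0.46, adjusted p = 4.99e-06), 4.19 (SE 0.44, adjusted p = 3.39e-05), 4.54 (SE 0.36, adjusted p = 2.54e-06) and 4.10 (SE 0.25, adjusted p = 1.93e-07). In the list of spindle assembly and cytokinesis all 29 genes tested rose, between 1.36 and 5.65 on the log2 scale. ASPM, a protein of spindle poles, had the highest of these differences. It stood at 15.2, 12.1, 6.33 and 3.02 CPM in mitotic-low and 537, 363, 475 and 348 CPM in mitotic-high cells, a difference of 5.65 (SE 0.33, adjusted p = 1.79e-07). NUSAP1, which bundles microtubules near chromosomes, had the smallest p of the list and rose from 25.3, 14.7, 17.3 and 24.9 CPM to 493, 300.04, 625 and 434 CPM, by 4.41 (SE 0.24, adjusted p = 1.15e-07). CDCA3 rose by 4.56 (SE 0.33, adjusted p = 8.83e-07). HMMR, a spindle protein with few counts, stood at 0, 0.396, 2.28 and 0.355 CPM and 29.4, 25.7, 30.9 and 29.3 CPM, a difference of 5.63 (SE 0.97, adjusted p = 0.00304), whose size depends on the prior count of the fit. GTSE1 and DEPDC1, both taken for the size of their change, rose by 5.20 (SE 0.55, adjusted p = 3.25e-05) and 5.54 (SE 0.46, adjusted p = 3.43e-06).

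**Figure D2:**
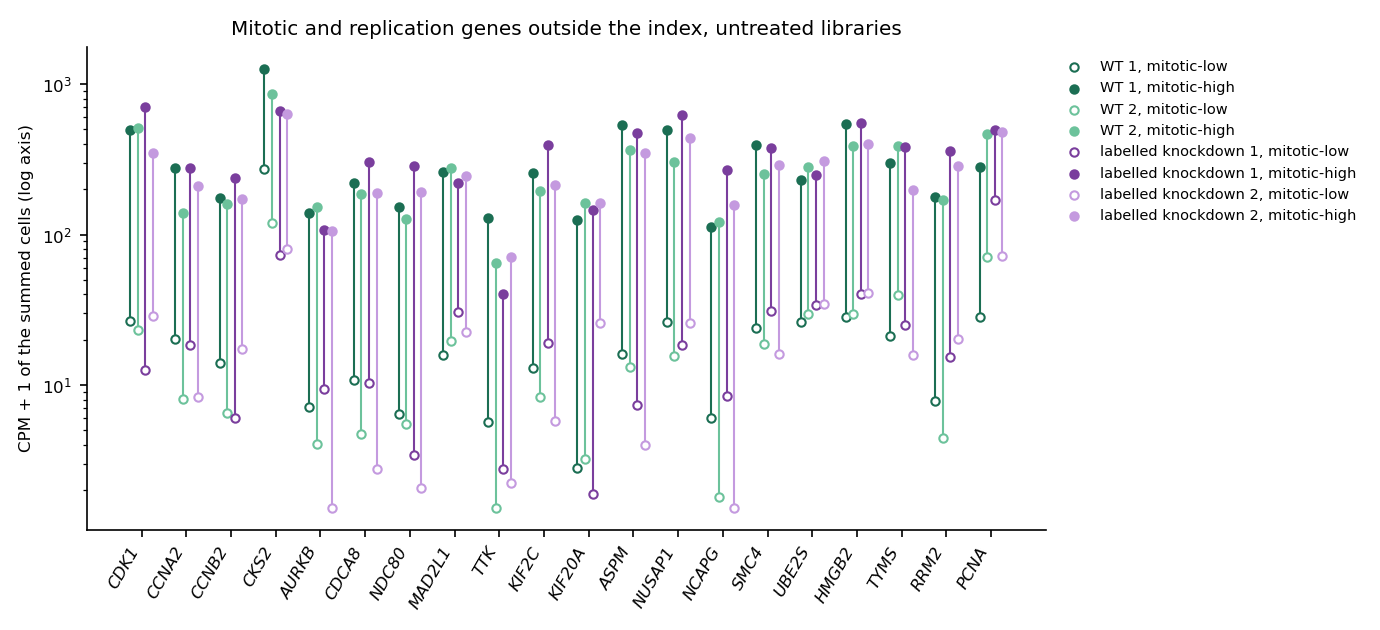
CPM + 1 of the summed cells (vertical axis, logarithmic) of 20 mitotic and replication genes outside the index (horizontal axis) in the 4 untreated libraries; open circles are mitotic-low cells, filled circles mitotic-high cells, and each line joins the 2 sums of 1 library. Every line goes upward, and for NDC80 the mitotic-low sums stay below 6 CPM while the mitotic-high sums start at 126 CPM.

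Among the genes of anaphase, cohesin and condensin, 14 of 24 rose, with a median of 1.91. The condensin subunit NCAPG (ENSG00000109805.9, chromosome 4, 17810902 to 17844862), which compacts mitotic chromosomes, had the largest difference of the 12 genes taken for their size. It stood at 5.06, 0.792, 7.47 and 0.533 CPM in mitotic-low and 112, 121, 265 and 155 CPM in mitotic-high cells, a log2 difference of 5.90 (SE 0.55, adjusted p = 1.13e-05). The condensin ATPase SMC4 rose by 3.88 (SE 0.23, adjusted p = 1.79e-07). UBE2S, which extends ubiquitin chains for the anaphase-promoting complex, rose by 3.07 (SE 0.23, adjusted p = 1.12e-06), and PTTG1 (securin), which holds separase in check, by 2.62 (SE 0.20, adjusted p = 1.45e-06). Not called were ESPL1, which encodes separase itself, the core subunits CDC27, CDC16, ANAPC1 and ANAPC11, the activator FZR1, and STAG1, STAG2, WAPL and PDS5B of the cohesin ring.

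Of 20 genes of chromatin and the nuclear lamina, 17 rose, with a median of 1.67; LMNA, HMGA1 and HMGA2 did not pass. HMGB2, an abundant DNA-bending protein, rose from 27.1, 28.8, 39.4 and 40.2 CPM to 544, 386, 551 and 399.5 CPM, by 3.72 (SE 0.22, adjusted p = 1.79e-07). The histone variants H2AFZ and H2AFX rose by 1.77 (SE 0.13, adjusted p = 8.83e-07) and 2.83 (SE 0.24, adjusted p = 4.87e-06). Of the 17 histone genes tested, HIST1H4C and H3F3B rose and HIST1H2BD fell. HIST1H4C, a histone H4 gene of S phase, stood at 856, 570.3, 695 and 836 CPM in mitotic-low and 6013, 7074, 6576 and 3679 CPM in mitotic-high cells, a difference of 2.89 (SE 0.22, adjusted p = 2.31e-05). H3F3B rose by 0.50 (SE 0.12, adjusted p = 0.0324) and lost its call without any 1 of the 4 libraries (adjusted p from 0.0604 to 0.18). HIST1H2BD differed by -2.18 (SE 0.46, adjusted p = 0.0135) and lost its call without WT library 2 or labelled-knockdown library 1 (adjusted p = 0.112 and 0.0528). Histone genes are near-identical copies, and the share of their counts that was split between copies is unknown. Of 7 tubulins, TUBB4B alone rose, by 1.71 (SE 0.18, adjusted p = 3.21e-05). TUBA1C had a value of 1.36 (SE 1.43, adjusted p = 0.731) and at most 8.85 CPM in any sum.

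Few transcription factors of the cell cycle were called. Of 19 tested, 4 rose; without WT library 2 the count was 1, and without labelled-knockdown library 2 it was 2. MYBL2 (B-MYB) stood at 2.89, 2.77, 11.02 and 5.69 CPM in mitotic-low and 65.9, 77.0, 62.8 and 47.6 CPM in mitotic-high cells, a difference of 3.60 (SE 0.53, adjusted p = 8.46e-04), which did not pass without the most deeply counted cells (adjusted p = 0.0574). E2F1 and E2F8 differed by 4.18 (SE 0.81, adjusted p = 0.00688) and 4.07 (SE 1.00, adjusted p = 0.031); both lost their call without WT library 2 (adjusted p = 0.0572 and 0.143), and E2F8 also without either library labelled knockdown (adjusted p = 0.111 and 0.0948). TFDP1, a partner of the E2F factors named here after its values were seen, was the other gene called. FOXM1 was barely counted, at 3.62, 0.132, 0.127 and 0.355 CPM and 4.14, 5.54, 13.2 and 2.95 CPM, and its difference of 3.63 (SE 1.73, adjusted p = 0.326) did not pass.

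The promoters of the genes that rose were searched for 2 elements known from late cell cycle genes. The first, the cell cycle homology region (CHR), to which the DREAM and B-MYB complexes bind, was searched as TTTGAA or TTCGAA, and the second, bound by NF-Y, as CCAAT. Both strands were searched, so that a CHR can also read TTCAAA and a CCAAT box ATTGG, over 250 bases before to 50 bases after the start of each gene in RefSeq (GRCh38.p14). Overlapping matches were both kept. For 5 genes the 120 bases before the start, which overlap no exon of GENCODE 29, are shown with the matches in capitals: MKI67 of the index and CKS2 and KIF11 outside it hold both elements, CENPF of the index holds only CCAAT boxes here, and CLSPN, a replication checkpoint gene that also rose, is shown for a promoter with CCAAT boxes and no CHR.
MKI67, chr10:128126424-128126543, minus strand: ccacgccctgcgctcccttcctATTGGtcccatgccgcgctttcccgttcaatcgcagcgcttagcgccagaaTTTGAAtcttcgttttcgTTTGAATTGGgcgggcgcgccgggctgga
CKS2, chr9:89311075-89311194, plus strand: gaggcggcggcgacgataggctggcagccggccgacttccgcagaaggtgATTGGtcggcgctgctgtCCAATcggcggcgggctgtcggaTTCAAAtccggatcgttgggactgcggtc
KIF11, chr10:92593010-92593129, plus strand: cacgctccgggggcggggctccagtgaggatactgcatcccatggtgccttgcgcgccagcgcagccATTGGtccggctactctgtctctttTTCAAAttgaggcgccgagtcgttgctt
CENPF, chr1:214603075-214603194, plus strand: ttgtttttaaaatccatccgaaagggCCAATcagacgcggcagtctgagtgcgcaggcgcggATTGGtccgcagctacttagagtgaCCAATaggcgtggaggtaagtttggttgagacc
CLSPN, chr1:35769979-35770098, minus strand: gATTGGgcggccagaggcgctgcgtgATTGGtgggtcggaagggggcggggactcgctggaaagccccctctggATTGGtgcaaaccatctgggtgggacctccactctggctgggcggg
In CKS2, KIF11 and MKI67 a CHR begins 29, 28 and 29 bases before the start, and MKI67 has a further one at 47 bases. The CCAAT match next upstream of it begins 52 bases before the start in CKS2, 53 in KIF11 and 98 in MKI67, where another CCAAT match, at 24 bases, overlaps the CHR. The genes shown are examples. CDK1, KIF14, KIF20B and UBE2S, all called higher, held no CHR in their 120 bases. Of genes called lower, HIST1H2BD (H2BC5 in RefSeq) and SAT1 held both elements there. KRCC1, SGK1, HSPA5 and ERRFI1, also lower, held no CHR in their 120 bases. Over the whole 300-base window CDK1, KIF14, SGK1 and HSPA5 held 1 CHR each and KIF20B held 2. UBE2S, KRCC1 and ERRFI1 held 0 in that window.

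A CHR was found in 110 of the 271 higher genes with a promoter in the table (40.6%), of 317 in all. The share was 13.2% of 106 lower genes, 10.9% of 8602 genes tested and 16.6% of 27305 RefSeq promoters. CCAAT was found in 59.0% of the higher genes, 34.9% of the lower genes, 37.2% of the genes tested and 35.7% of all promoters. The share varied between lists: a CHR stood in 10 of 13 kinesin promoters and 19 of 25 promoters of spindle assembly and cytokinesis, but in 2 of 23 of replication licensing and 1 of 27 of the replication fork. CCAAT stood in 16 of the 23 licensing promoters. Of the index genes 6 had a promoter in the table; 5 of them held a CHR and all 6 a CCAAT. A match is a string of letters and not a measured binding site.

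Some of the genes of DNA replication, whose transcripts peak before those of mitosis, were also higher in mitotic-high cells. Of 25 licensing and origin genes 11 rose, with a median of 2.58, and of 33 genes of the fork and of nucleotide synthesis 21 rose, with a median of 2.22. The licensing count was 7 without the most deeply counted cells, and MCM2, MCM5, MCM10 and ORC1, named here after their values were seen, were among those not called. TYMS, which makes thymidylate, stood at 20.2, 38.9, 24.2 and 14.8 CPM in mitotic-low, 60.7, 152, 181 and 131 CPM in intermediate and 299, 387, 383 and 196 CPM in mitotic-high cells. Its mitotic-high minus mitotic-low difference was 3.65 (SE 0.23, adjusted p = 2.84e-07). RRM2, a subunit of ribonucleotide reductase, rose from 6.87, 3.43, 14.4 and 19.4 CPM to 177, 169.6, 357 and 286 CPM, by 4.60 (SE 0.32, adjusted p = 7.61e-07), and TK1, thymidine kinase, by 2.83 (SE 0.25, adjusted p = 5.71e-06). PCNA, the sliding clamp, rose from 27.1, 70.2, 168 and 70.7 CPM to 280.3, 467, 494 and 479 CPM, by 2.52 (SE 0.26, adjusted p = 2.57e-05). The helicase subunits MCM7 and MCM3 rose by 2.41 (SE 0.36, adjusted p = 9.42e-04) and 1.76 (SE 0.31, adjusted p = 0.00348); MCM3 lost its call without the most deeply counted cells (adjusted p = 0.0702). CLSPN rose by 3.63 (SE 0.43, adjusted p = 9.17e-05). The licensing factor CDT1 rose by 3.97 (SE 0.79, adjusted p = 0.00869) and its inhibitor GMNN by 1.68 (SE 0.27, adjusted p = 0.00188). CDC6 did not pass, at 2.53 (SE 0.78, adjusted p = 0.107): it stood at 1.81, 4.62, 36.6 and 24.2 CPM in mitotic-low and 55.1, 109, 43.1 and 59.8 CPM in mitotic-high cells, and passed without labelled-knockdown library 1 (adjusted p = 0.0175). FAM111B had a value of 2.67 (SE 0.93, adjusted p = 0.151).

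The cells between the 2 ends were compared with mitotic-low cells in a separate fit of all 3 tertiles, again with the library as a block. The mitotic-high values set beside them here are from the fit of the 2 ends. With all 3 tertiles in the fit, the kinesin median in mitotic-high cells was 4.00. Against mitotic-low cells, 97 of 10836 genes outside the index were higher in intermediate cells (0.895%) and 12 lower (0.111%). Replication licensing had 11 of these calls and a median of 1.94, against 2.58 in mitotic-high cells. Kinesins had 6 and a median of 1.84, against 4.10. Of CKS2, which rose by 2.75 in mitotic-high cells, intermediate cells had a value of 0.60 (adjusted p = 0.37), while MCM3 had 1.94 in intermediate cells (adjusted p = 0.00328) and 1.76 in mitotic-high cells. Both comparisons share mitotic-low cells, and the intermediate and mitotic-high values were not tested against each other. A list of 5 markers of late G1 and S phase (CCNE2, CDC6, MCM3, PCNA and RRM2), drawn up after the values were seen, was summed per cell. Its median was 115 CPM in the 64 mitotic-low cells, 265 CPM in the 49 intermediate cells and 711 CPM in the 68 mitotic-high cells. The order of the tertiles was the same in each library. The libraries differed in level, with intermediate medians of 123, 233, 742 and 553 CPM. The mitotic-high cells spread from 6.92 to 2925 CPM. Within mitotic-high cells the sum of these markers had a correlation of −0.27 with the index on the log2 scale, against 0.40 within intermediate and 0.03 within mitotic-low cells (Pearson, over 68, 49 and 64 cells, both measures from the same counts). Cells of the 4 libraries were pooled for these correlations, and the part of the differences between libraries in them was not tested.

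Of 25 genes of homologous recombination and the Fanconi pathway, which repair breaks with the sister chromatid, 11 rose, with a median of 2.83. MND1, known for its role in meiotic recombination, was among the 12 genes with the largest rise, from 0, 0.660, 0.886 and 13.5 CPM to 58.2, 81.6, 73.3 and 51.5 CPM with a difference of 5.52 (SE 0.98, adjusted p = 0.00569), and lost its call without labelled-knockdown library 1 (adjusted p = 0.0636). ASF1B, a chaperone that brings histones to new DNA, rose by 5.36 (SE 0.47, adjusted p = 5.71e-06).

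The regulators of G1 showed no such order. Of 18 tested, 2 rose: CDKN3, a phosphatase that acts on CDK1, from 13.7, 35.6, 58.1 and 31.6 CPM to 427, 377, 534 and 408 CPM, by 3.70 (SE 0.27, adjusted p = 1.12e-06), and CDKN2D, an inhibitor of CDK4 and CDK6, by 2.06 (SE 0.30, adjusted p = 6.96e-04). CCND1, the cyclin of G1, overlapped between the ends, at 103, 240.2, 213 and 185 CPM and 260.0, 217, 389 and 311 CPM with a difference of 0.63 (SE 0.23, adjusted p = 0.161), and passed without WT library 2 (adjusted p = 0.0397). CDKN1A and CDKN1B, inhibitors that hold cells in G1, had values of 0.25 (SE 0.45, adjusted p = 0.868) and -0.22 (SE 0.53, adjusted p = 0.907); each was higher in mitotic-high cells in 2 of 4 libraries. CCNE1 had a value of -1.70 (SE 1.64, adjusted p = 0.701), and CCNE2 had 0 counts in each of the 4 mitotic-low sums and at most 5.66 CPM in a mitotic-high sum.

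Beyond the cell cycle proper, 2 lists drawn up after the values had been seen, of nuclear transport and of splicing, had some members called. Of 44 transport and pore genes 14 rose and 0 fell (9 without WT library 2 or without labelled-knockdown library 1), with a median of 0.99. KPNA2, an importin that also carries spindle factors, stood at 74.5, 116, 90.3 and 72.5 CPM in mitotic-low and 713, 519, 857 and 665 CPM in mitotic-high cells, a difference of 2.90 (SE 0.21, adjusted p = 8.83e-07). RANBP1, RAN and CSE1L, which run the Ran cycle, rose by 1.58 (SE 0.19, adjusted p = 1.10e-04), 1.04 (SE 0.15, adjusted p = 8.29e-04) and 1.23 (SE 0.20, adjusted p = 0.00192). Of 46 hnRNP and spliceosome genes 16 rose, with a median of 0.63, but the count was 7 without WT library 1, 6 without WT library 2, 5 without labelled-knockdown library 1 and 9 without labelled-knockdown library 2. HNRNPA2B1 rose from 533, 502, 481 and 419.8 CPM to 1022, 884, 1104 and 949.7 CPM, by 0.96 (SE 0.13, adjusted p = 4.57e-04). Without the most deeply counted cells the splicing genes HNRNPA1, HNRNPH1, HNRNPM, LSM3, SNRNP40, SNRPD1 and SNRPF lost their call (adjusted p from 0.0530 to 0.296). So did the transport and pore genes AHCTF1, IPO7, NUP205, NUP50 and TPR (adjusted p from 0.0996 to 0.484). Of 11 heat shock genes 4 rose (2 without WT library 1, 1 without labelled-knockdown library 1 and 2 without labelled-knockdown library 2). HSP90AA1 rose by 0.75 (SE 0.12, adjusted p = 0.00166). HSPD1 and HSPA8 rose by 0.75 (SE 0.17, adjusted p = 0.0205) and 0.56 (SE 0.13, adjusted p = 0.0229), and both lost their call without labelled-knockdown library 1 (adjusted p = 0.0725 and 0.0746), HSPD1 also without WT library 1 or labelled-knockdown library 2 (adjusted p = 0.101 and 0.0511), and HSPA8 without WT library 2 (adjusted p = 0.142). The other gene called was HSPH1, named after its values were seen.

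Of the 458 genes called, the 141 lower in mitotic-high cells included abundant transcripts such as TMSB4X, FTL, S100A6 and CTSD. TMSB4X (ENSG00000205542.10, chromosome X, 12975108 to 12977227), which binds actin monomers, had the smallest p of the lower genes and was named for that after the values were seen. It stood at 21558, 17654, 11999.5 and 13137 CPM in mitotic-low and 13368, 10949, 7152 and 7394 CPM in mitotic-high cells. WT libraries were higher than those labelled knockdown at both ends, and within each library mitotic-high cells were lower, a log2 difference of -0.81 (SE 0.07, adjusted p = 7.28e-06). FTL, the light chain of the iron store ferritin, fell from 12514, 9103, 9982 and 8964 CPM to 5385, 6800.5, 4781 and 5308 CPM, a difference of -0.93 (SE 0.12, adjusted p = 2.07e-04), with no overlap between the ends. FTH1, the heavy chain, differed by -1.23 (SE 0.29, adjusted p = 0.0281) and lost its call without WT library 1 or labelled-knockdown library 1 (adjusted p = 0.0932 and 0.177). FTL and FTH1 have many processed copies in the genome, and how the authors' counting treated reads shared with them is not given in the sources used here. They were the only called members among 22 oxidative stress genes; 1 was called without WT library 1 and 1 without labelled-knockdown library 1.

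A list of lysosomal genes, drawn up after the values were seen, had 10 of 38 members lower and 0 higher, with a median of -0.66; 35 of the 38 had lower values. Without WT library 1 the count was 3, without WT library 2 it was 6, and without the libraries labelled knockdown it was 5 and 4. PSAP, which is cut into activators of lipid breakdown, stood at 945, 615, 916 and 792 CPM in mitotic-low and 530.4, 346, 314 and 381 CPM in mitotic-high cells; the ends did not overlap, a difference of -1.14 (SE 0.15, adjusted p = 3.20e-04). The protease CTSD fell from 3595, 3391, 1379 and 1702 CPM to 1905, 2023, 857 and 1103 CPM, a difference of -0.81 (SE 0.11, adjusted p = 2.73e-04). GRN (progranulin) differed by -1.08 (SE 0.21, adjusted p = 0.0064) and lost its call without WT library 1 (adjusted p = 0.0519). Without the most deeply counted cells GRN did not pass either (adjusted p = 0.0963). The lysosomal genes CTSB, LAMP2, SLC17A5, SMPD1 and DNASE2 also lost their call there (adjusted p from 0.0545 to 0.332). In a list of S100 proteins, galectins and thymosins, also drawn up afterwards, 5 of 15 fell and 0 rose. S100A6 fell from 10402, 15531, 5378 and 5936 CPM to 8405, 9546, 3329 and 4020.5 CPM, a difference of -0.64 (SE 0.08, adjusted p = 3.20e-04). S100A4 fell by 0.68 (SE 0.11, adjusted p = 0.00196). The galectin LGALS3 and its binding protein LGALS3BP differed by -0.75 (SE 0.18, adjusted p = 0.0249) and -0.86 (SE 0.16, adjusted p = 0.0064). LGALS3 lost its call without WT library 2 or either library labelled knockdown (adjusted p = 0.0672, 0.121 and 0.103), and LGALS3BP without WT library 1 (adjusted p = 0.0508). The call of LGALS3 was also lost without the most deeply counted cells (adjusted p = 0.162). TMSB4X was the fifth gene called. Also chosen after their values were seen, SAT1, which breaks down polyamines, CEMIP, which degrades hyaluronan, CLU (clusterin) and CST3, a secreted protease inhibitor, were lower, with differences of -1.56 (SE 0.21, adjusted p = 3.70e-04), -1.60 (SE 0.24, adjusted p = 8.95e-04), -1.49 (SE 0.24, adjusted p = 0.00166) and -0.99 (SE 0.14, adjusted p = 5.83e-04). ERRFI1, an inhibitor of the EGF receptor, fell by 1.17 (SE 0.16, adjusted p = 3.06e-04), a call lost without the most deeply counted cells (adjusted p = 0.0529).

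Of 23 interferon response genes 4 fell and 0 rose, with a median of -0.91. IFITM3, which blocks virus entry, fell from 2434, 1863, 914 and 964 CPM to 1121, 918, 602 and 466 CPM, a difference of -1.02 (SE 0.13, adjusted p = 1.80e-04), and BST2 (tetherin) differed by -0.96 (SE 0.16, adjusted p = 0.00244). IFI27 differed by -1.69 (SE 0.35, adjusted p = 0.0116) and lost its call without WT library 2 or labelled-knockdown library 2 (adjusted p = 0.0568 and 0.0592). The call of IFI27 was also lost without the most deeply counted cells (adjusted p = 0.141). IFIT2, named after its values were seen, was the other one called. Of 23 NF-kB targets and cytokines 3 fell (1 without labelled-knockdown library 2), with a median of -0.55. SOD2, the mitochondrial superoxide dismutase, had the largest fall among the genes with an average of at least 5 on the log2 CPM scale. It stood at 1168, 189, 1187 and 364 CPM in mitotic-low cells, with WT library 1 and labelled-knockdown library 1 high, and at 87.9, 59.9, 115 and 103 CPM in mitotic-high cells, a difference of -2.72 (SE 0.37, adjusted p = 0.00244). SOD2 lost its call with all 3 tertiles in the fit (adjusted p = 0.0603) and with no filter on low counts (adjusted p = 0.0898). TNFSF10 (TRAIL) differed by -1.54 (SE 0.26, adjusted p = 0.00599) and lost its call without labelled-knockdown library 2 (adjusted p = 0.12). Its call was also lost without the most deeply counted cells (adjusted p = 0.392) and with all 8 libraries in the fit (adjusted p = 0.278). IL1B differed by -4.48 (SE 1.03, adjusted p = 0.0221) and lost its call without WT library 1 or either library labelled knockdown (adjusted p from 0.0556 to 0.115). The call of IL1B was also lost without the most deeply counted cells (adjusted p = 0.0889).

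**Figure D3:**
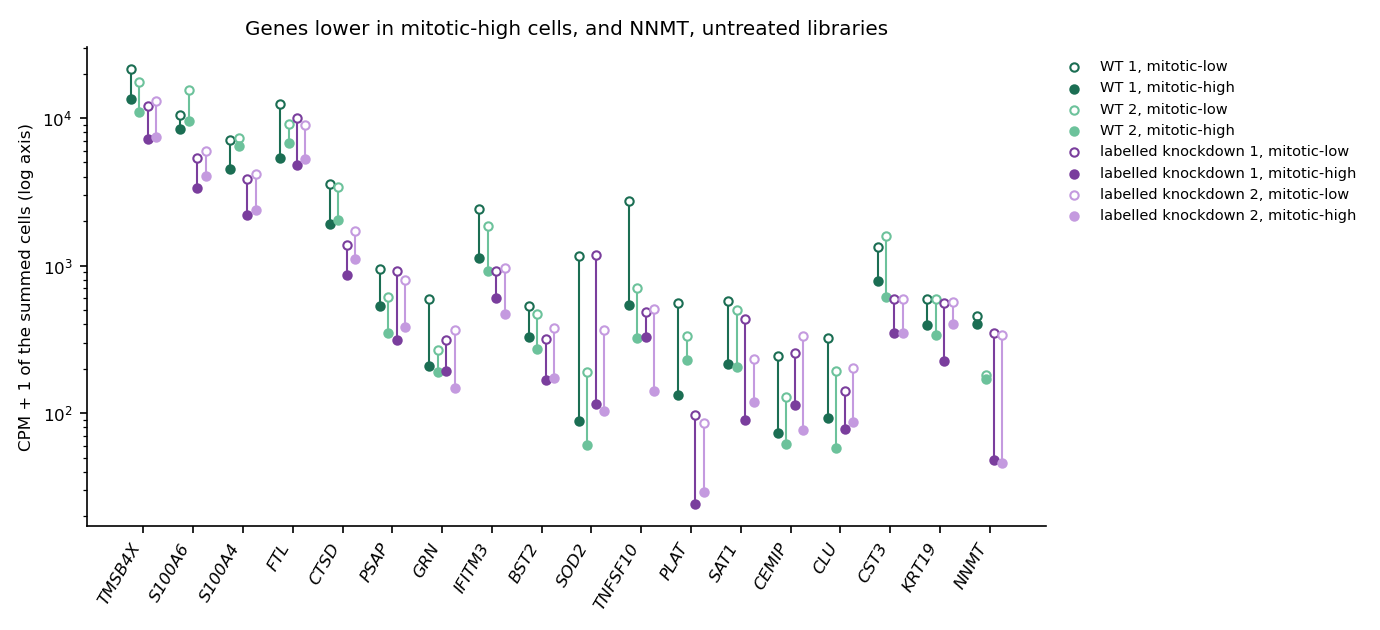
CPM + 1 of the summed cells (vertical axis, logarithmic) of 17 genes called lower in mitotic-high cells, with NNMT at the right (horizontal axis), in the 4 untreated libraries; open circles are mitotic-low cells, filled circles mitotic-high cells, and each line joins the 2 sums of 1 library. The lines of the 17 genes go down in each library, and NNMT goes down steeply in the 2 libraries labelled knockdown, to 47.3 and 45.1 CPM.

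Of 29 matrix and mesenchymal genes 4 fell, among them S100A4, PLAT and TIMP1, and 0 rose, with a median of -0.39. PLAT, an activator of plasminogen, stood at 558, 330.1, 95.6 and 84.2 CPM in mitotic-low and 132, 229.7, 23.1 and 28.3 CPM in mitotic-high cells, a difference of -1.63 (SE 0.27, adjusted p = 0.002). The WT libraries were the higher ones at both ends. PLAT did not pass without the most deeply counted cells (adjusted p = 0.146). The other large falls taken by size were of genes with fewer counts. PLPP3, a lipid phosphatase of the membrane, and NIPSNAP1, a mitochondrial protein, had differences of -2.33 (SE 0.44, adjusted p = 0.00548) and -2.19 (SE 0.44, adjusted p = 0.0088). PLPP3 did not pass without the most deeply counted cells (adjusted p = 0.249). The remaining ones, KRCC1, ZBED6CL, SGK1, ARID5B, NUPR1, CD14, JUP and PDZK1IP1, differed by −2.27 to −2.04 and lost their call without at least 1 library. Their adjusted p-values without the library that moved them most were KRCC1 0.0716, ZBED6CL 0.0516, SGK1 0.0756, ARID5B 0.0716, NUPR1 0.239, CD14 0.0543, JUP 0.109 and PDZK1IP1 0.0659, for which WT library 1, labelled-knockdown library 1, WT library 1, WT library 2, labelled-knockdown library 1, WT library 1, labelled-knockdown library 2 and WT library 2 were left out.

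All 13 mitochondrially encoded genes had lower values in mitotic-high cells, with a median of -0.26, and 3 were called: MT-CO1, at 19227, 12343, 15512 and 18080.5 CPM in mitotic-low and 8647, 8845, 12599 and 13590.0 CPM in mitotic-high cells, with a difference of -0.65 (SE 0.13, adjusted p = 0.0107), MT-ND4L and MT-CO2. MT-CO1 did not pass without the most deeply counted cells (adjusted p = 0.0776). Summed, the 13 genes stood at 120023, 108548, 108922 and 123769 CPM in mitotic-low cells. In mitotic-high cells the sum was 81292, 84991, 108573 and 120383 CPM. The fall of the sum thus lay mainly in the WT libraries, and those labelled knockdown barely changed. The mitochondrial share of counts per cell was lower in mitotic-high cells in 4 of 4 libraries, as given above, and its part in these calls was not tested. Without WT library 1 the median was −0.12 and the count 1, and without WT library 2 the count was also 1. No member was called with counts thinned to 50000 per cell (median −0.14), in limma, or without the most deeply counted cells (median −0.13). Of 73 ribosomal protein genes 3 were lower, RPS27, RPL31 and RPL34, with a median of -0.11 over the list; without 1 library the count was 1 or 0 (1 without WT library 1 or labelled-knockdown library 2, 0 without WT library 2 or labelled-knockdown library 1). Of 39 nuclear genes of the respiratory chain COX5B and COX6B1 were lower, with a count of 1 without labelled-knockdown library 1 and 0 without any other library. MSMO1 was the 1 called gene of 22 in cholesterol synthesis, at -0.99 (SE 0.23, adjusted p = 0.0263), and lost its call without WT library 1 (adjusted p = 0.15) or without either library labelled knockdown (adjusted p = 0.112 and 0.0849). NDRG1, a gene of the hypoxia list, fell by 1.14 (SE 0.21, adjusted p = 0.00522), as 1 of 30, of which 25 had lower values, and did not pass without the most deeply counted cells (adjusted p = 0.0822); the count was 2 without labelled-knockdown library 2. HSPA5, the chaperone of the endoplasmic reticulum, was the 1 called of 21 genes of the unfolded protein response, at -0.75 (SE 0.18, adjusted p = 0.0287), and lost its call without either library labelled knockdown (adjusted p = 0.201 and 0.069). Of 25 immediate early genes FOSL1 alone was called, higher by 1.98 (SE 0.44, adjusted p = 0.03), and the call was lost without WT library 2 (adjusted p = 0.0602) or either library labelled knockdown (adjusted p = 0.16 and 0.0977). Over all genes tested outside the index, 3.04% were called higher and 1.35% lower. A few calls in lists of these sizes are therefore given for the genes and not as results about the lists.

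**Figure D4:**
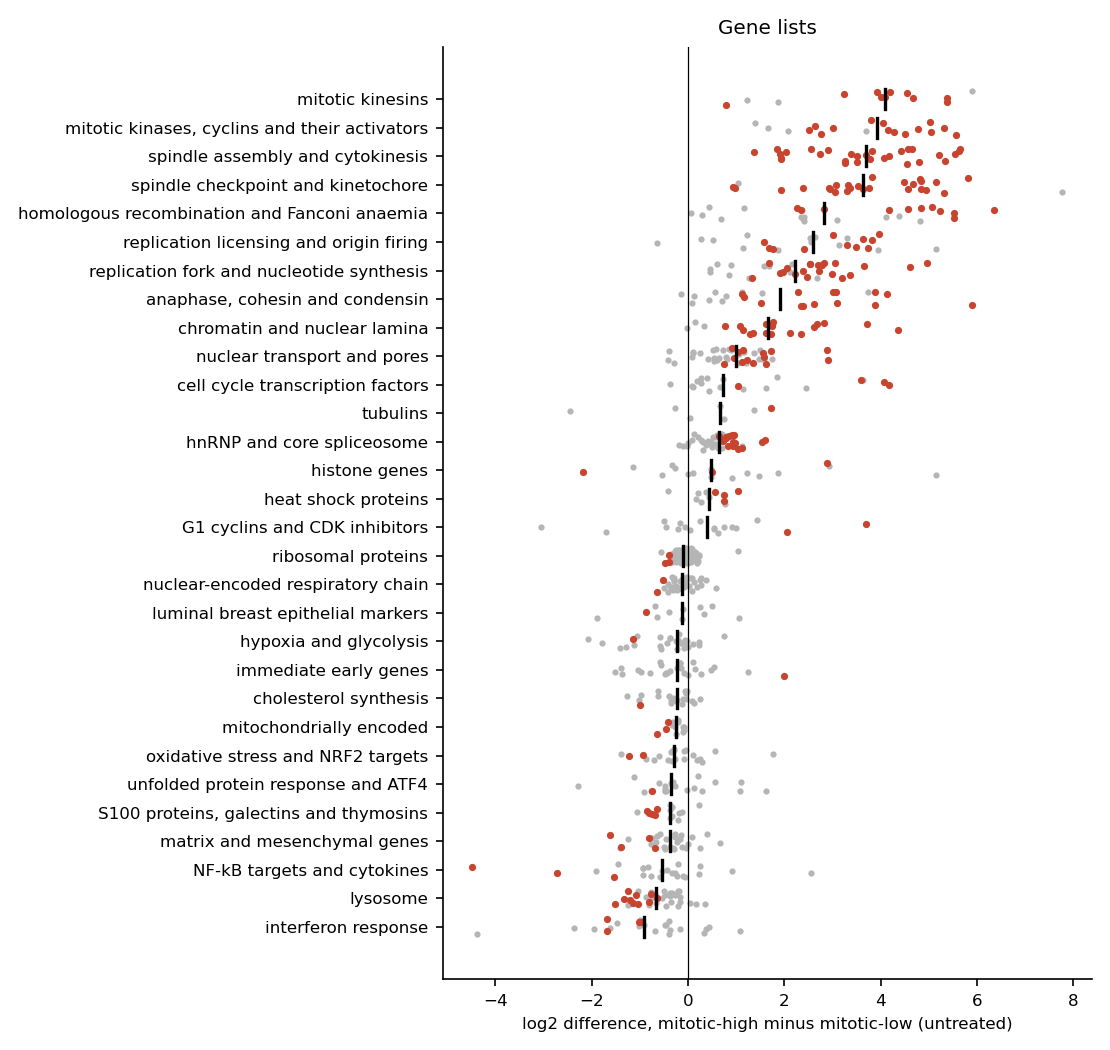
Log2 difference, mitotic-high minus mitotic-low cells in the untreated libraries (horizontal axis), of the tested members of 30 gene lists (vertical axis, ordered by median); red points were called, grey points were not, and black bars are the medians of the lists. The medians run from 4.10 for the mitotic kinesins to −0.91 for the interferon response.

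Markers of other cell types were checked in the same sums. Of 17 leukocyte markers 2 had counts enough to be tested, CD14 and LAPTM5, and 9 had no count in the untreated cells, among them the T-cell markers CD3E and CD2, the B-cell markers CD79A and MS4A1, the myeloid adaptor TYROBP and the haemoglobin genes HBB, HBA1 and HBA2. The summed markers of this list ranged from 41.1 to 477 CPM in the mitotic-low sums and from 10.96 to 153 CPM in the mitotic-high sums. They were lower in the mitotic-high cells of each library. CD14 stood at 338, 128, 22.4 and 17.2 CPM in mitotic-low and 53.04, 49.5, 4.29 and 6.01 CPM in mitotic-high cells, a difference of -2.05 (SE 0.33, adjusted p = 0.00172), and lost its call without WT library 1 (adjusted p = 0.0543). Their part in the lower genes was not tested. Markers of embryonic kidney lines summed to 27.8 to 39.8 CPM in mitotic-low and 5.90 to 34.0 CPM in mitotic-high cells, with 6 of 9 without counts. Basal epithelial markers summed to 748 to 1087 CPM and 672 to 896 CPM. Luminal markers summed to 2184 to 3591 CPM and 1535 to 3558 CPM; KRT19, a simple-epithelium keratin, was the 1 called of 11, lower in 4 of 4 libraries, at -0.87 (SE 0.16, adjusted p = 0.00534), and did not pass without the most deeply counted cells (adjusted p = 0.0597).

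Whether the 2 ends differed by the same amount under either label was tested as an interaction. Of 10432 genes 1 was called (0.00959%), and 553 had an unadjusted p below 0.05. The gene was NNMT (ENSG00000166741.7, chromosome 11, 114257787 to 114313285), a methyltransferase that uses up nicotinamide. In the WT libraries NNMT stood at 452 and 180.4 CPM in mitotic-low and 399 and 169 CPM in mitotic-high cells. In the libraries labelled knockdown it stood at 348 and 339 CPM in mitotic-low and 47.3 and 45.1 CPM in mitotic-high cells. The difference between the ends was −0.22 under the WT label and −2.95 under the knockdown label, and these differed by −2.72 on the log2 scale (SE 0.36, adjusted p = 0.0314, edgeR's quasi-likelihood test on 2 residual degrees of freedom). The call was lost when all 8 libraries entered the fit (adjusted p = 0.0687) and in limma on the mean CPM per cell (adjusted p = 0.294). Limma called AKR1B1, DKK1 and SAA1 instead. The number of genes called also moved with single libraries, in fits with 1 residual degree of freedom: it was 0 without WT library 1 (adjusted p of NNMT = 0.175), 36 without WT library 2 (0.00111), 4 without labelled-knockdown library 1 (0.0416) and 10 without labelled-knockdown library 2 (0.0142). The difference of NNMT itself stayed between −2.81 and −2.63 in these 4 fits. In the irradiated libraries, where the labels were not tested against each other, NNMT stood at 122 and 225 CPM in mitotic-low and 120.01 and 109.6 CPM in mitotic-high WT cells, and at 118 and 114 CPM in mitotic-low and 29.6 and 17.04 CPM in mitotic-high cells of those labelled knockdown. ATM was lower in mitotic-high cells in each untreated library, at 95.1, 43.0, 9.88 and 52.2 CPM in mitotic-low and 56.3, 17.3, 6.15 and 23.9 CPM in mitotic-high cells, but its difference of -1.05 (SE 0.38, adjusted p = 0.168) did not pass.

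The same tertiles in the 4 irradiated libraries, which share no cells with the untreated ones but were cut at the same index values, gave a second set of differences. There 304 of 10167 genes outside the index were higher in mitotic-high cells (2.99%) and 99 lower (0.974%), from 53 mitotic-high and 57 mitotic-low cells. Without the first irradiated library labelled knockdown the 403 calls became 267, the lowest number when a library was left out. Of the 316 higher genes tested in both, 315 were higher in the irradiated libraries too and 217 were called there. These 217 were 68.5% of the genes called higher in untreated and 71.4% of those called higher in irradiated cells. Of the 138 lower genes tested in both, 131 had lower values and 40 were called, which is 28.4% of the untreated and 40.4% of the irradiated calls. The median difference of the genes called higher in untreated cells was 2.52 there and 1.69 in the irradiated libraries, and that of the genes called lower was −1.13 and −0.64; the untreated values are those the genes were chosen on. ASPM stood at 41.2, 8.06, 10.7 and 6.44 CPM in mitotic-low and 357, 224, 286 and 255 CPM in mitotic-high cells of the irradiated libraries, a difference of 4.46 (adjusted p = 2.52e-07). TMSB4X differed by -0.48 (adjusted p = 0.0132), and SOD2 by -1.09 (adjusted p = 0.0665). The kinesins had a median of 3.51 with 10 of 13 called, and the interferon response a median of 0.04 with 3 of 21 called lower. No gene was called for a difference between irradiated and untreated cells in the mitotic-high minus mitotic-low contrast (edgeR, 0 of 10222 genes, with TMM or with DESeq2's size factors), and 395 and 397 had an unadjusted p below 0.05; the count was also 0 without each of the 8 libraries in turn.

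**Figure D5:**
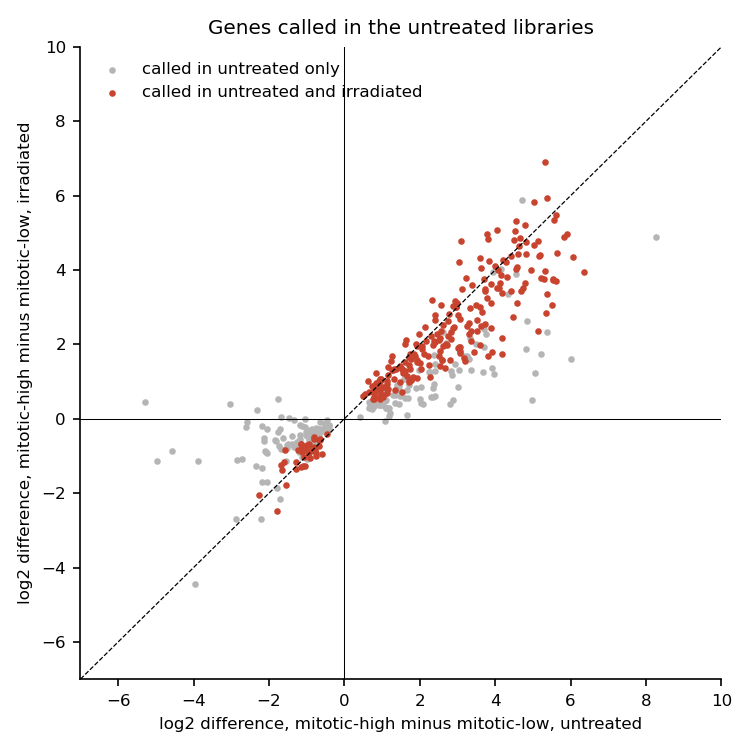
Log2 difference, mitotic-high minus mitotic-low cells, of the 454 genes outside the index called in the untreated and tested in the irradiated libraries; the horizontal axis gives the untreated and the vertical axis the irradiated difference, red points were called in both, grey points in the untreated only, and the dashed line marks equal values. Of the higher genes 315 of 316 lie above 0 on the vertical axis.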

How the data were processed

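Single MDA-MB-231 cells were amplified with a modified Smart-seq2 protocol and made into 3′ mRNA libraries, per the labels' protocols. The authors deposited raw counts per coding gene and cell; Trimmomatic 0.36, HISAT2 2.1.0, HTSeq 0.9.1 and hg38 are named in the submitters' processing notes, and whether counts are reads or molecules, and the strand setting, are not given in the sources used here. The files list 15041 genes in any library and 10829 in all; a gene missing from a library was taken as 0. Of 378 cells, 15 with fewer than 1000 genes or 5000 counts were left out (at most 1071 counts, 8 of them untreated and labelled knockdown). Untreated cells kept held 12204 to 1834074 counts. Doublets were not called.

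Counts were summed per library and tertile and fitted in R 4.3.3 with edgeR 4.0.16 (TMM, filterByExpr, robust quasi-likelihood, library as block, 3 residual degrees of freedom, biological coefficient of variation 0.58); limma 3.58.1 and DESeq2 1.42.0 gave alternatives. On simulated counts for 10442 genes, with 200 changed at an average log2 CPM of at least 5, 22% of 2-fold and 95% of 4-fold changes were recovered with 2 false calls. The simulation drew genes independently, with a spread set by their abundance, and ranked no cells on an index. It therefore cannot give the share of false calls among the genes called here. Log2 differences are between sums with edgeR's prior count. Genes named are the 12 with the largest called difference in each direction (average log2 CPM at least 5, same direction in 4 libraries), up to 3 called members per list with the smallest p, and a set of cell cycle genes; others are marked in the text. Members and lists were chosen with earlier results of these data known. One list and some genes the rule takes are not reported here. Gene positions are from GENCODE 29, and promoters from RefSeq; 271 of 317 higher genes matched.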

Additional observations from a re-analysis of the deposited data

Results flagged for a closer look

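The change of NNMT between mitotic-high and mitotic-low untreated cells differed between the genotype labels by -2.72 on the log2 scale, in a test of the difference itself (edgeR, adjusted p = 0.0314; 0.00111 to 0.294 over the alternatives, which include leaving out each library). In both libraries labelled knockdown the mitotic-high cells lay below the mitotic-low cells by a wide margin, and in both WT libraries the 2 ends were near each other. The label goes with the title suffix, and 1 of the libraries labelled knockdown lay within the WT range of ATM. Genotype cannot be told apart from any other difference that goes with the suffix.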

How the results depend on the processing

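With 458 genes called in the untreated libraries, the count was 237 with no replicate block, which here means the library term left out (203 higher, 34 lower), 1009 in DESeq2's Wald test (572 higher, 437 lower) and 299 without the most deeply counted cells (over 2 times the median of the library). The other settings with all libraries (scaling, filters, limma, more libraries or tertiles in the fit, and other cuts, indices or cell filters) gave 391 to 625, within 1.5 times of 458. Leaving out 1 library gave 291 to 367 calls in the untreated and 267 to 334 in the irradiated libraries, of 403. The count for the difference between genotype labels was 1, and became 0 with all 8 libraries in the fit (655 genes at an unadjusted p below 0.05) and 3 in limma; leaving out 1 library gave 0 to 36, in fits chosen after seeing the data, where the lone library of a label is taken to vary like the others. Of the genes called in the untreated libraries 140 were called in every setting. Of 150 called genes that were followed by name, 61 kept their call in every one of the 22 alternatives that tested them, and 0 changed direction. Beyond those given above, H3F3B, FOSL1, MSMO1, JUP, NUPR1, PDZK1IP1, SGK1, COX5B, COX6B1, RPS27, RPL31 and RPL34 lost their call without the most deeply counted cells. Mitotic-high and mitotic-low cells were paired by their library, and replicate numbers were not used to pair libraries of different groups. The mitotic-low cells of WT library 1 are few, at 12, with 2765431 counts in all, which limits the precision of low values there. With 4 libraries the smallest exact p is 0.125, so the depth and mitochondrial comparisons could not pass 0.05.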
